A study of Homo sapiens with 8 samples.

Results

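Keratins are the intermediate filament proteins of epithelial cells, and the 10 described here were chosen by name, as keratins of simple epithelium (KRT7, KRT8, KRT18 and KRT19) and of stratified, squamous or basal epithelium (KRT4, KRT13, KRT5, KRT15, KRT17 and KRT80). They are 10 of the 52576 genes in the deposited table, each matched there once by its symbol. The choice was made with earlier results of these libraries known, in which KRT4 stood among the lowest genes of each e3 guide against the mean of the controls. Every value that sets the no-guide libraries against others is therefore given as a description, with no p printed for the 10 keratins. Which of them passed a threshold there is a description too.

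The RNA came from cultured NCI-H2009 cells, a line established from a human lung adenocarcinoma. All 8 libraries were of cells that had first been given dCas9-KRAB, a fusion of the KRAB repressor domain to a Cas9 that no longer cuts DNA. A pair of libraries received no guide RNA after that, a pair a non-targeting guide (one without a target in the human genome), a pair e3 guide 1 and a pair e3 guide 2, both directed to an enhancer called e3. No label ties the paired libraries to separate cultures, so the p-values below measure only how far these libraries differ, and that may be technical variation. Whether the dCas9-KRAB cells were a clone or a pool is not given either.

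A keratin filament is built from pairs of 1 type I and 1 type II chain, and a cell makes matching partners together. The type II genes described here lie on chromosome 12 and the type I genes on chromosome 17, except KRT18, which lies on chromosome 12 as KRT8 does. KRT8 (type II) with KRT18 (type I) is the pair of simple epithelia, the single-layered linings of glands and airways, joined by KRT7 (type II) and KRT19 (type I) in ducts and in most lung adenocarcinomas. KRT4 (type II) and KRT13 (type I) are the pair of the upper layers of moist squamous linings such as the mouth and oesophagus. KRT5 (type II) and KRT15 (type I) belong to basal cells, KRT17 (type I) to basal cells and to wounded epithelium, and KRT80 (type II) is a filament protein found at cell junctions as epithelia mature.

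Promoters are shown for KRT4, whose level differed most between libraries, and for KRT8, an abundant simple keratin, beside it. The stretches run from 250 bases before to 50 bases after the first listed start of the gene, 5′ to 3′ on its own strand (minus for both). They are from RefSeq on GRCh38.p14, while the authors' values were made on hg19. Which start these cells used was not tested. Of the 10 keratins, 3 had an entry in that table, KRT4, KRT5 and KRT8. The capitals mark TATAA.
KRT4, chr12:52814067-52814366: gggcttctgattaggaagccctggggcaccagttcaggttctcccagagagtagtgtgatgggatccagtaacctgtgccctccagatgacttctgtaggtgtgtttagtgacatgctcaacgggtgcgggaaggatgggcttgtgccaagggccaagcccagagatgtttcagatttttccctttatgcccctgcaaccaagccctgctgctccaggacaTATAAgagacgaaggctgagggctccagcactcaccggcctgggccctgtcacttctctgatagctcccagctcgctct
KRT8, chr12:52926420-52926719: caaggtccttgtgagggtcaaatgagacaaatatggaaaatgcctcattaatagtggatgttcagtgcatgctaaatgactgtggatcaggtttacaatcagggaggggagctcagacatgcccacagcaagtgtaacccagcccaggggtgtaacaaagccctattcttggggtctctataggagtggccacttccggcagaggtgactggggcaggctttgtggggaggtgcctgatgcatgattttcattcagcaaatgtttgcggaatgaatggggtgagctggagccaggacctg
TATAA occurred once in the KRT4 stretch, beginning at position -29 from the start, and not in those of KRT8 and KRT5, on either strand. Of the 35116 promoters in the table, 20.4% held it. The palindromic E-box CACGTG, held by 7.26% of promoters, and the AP-1 site TGANTCA, held by 7.71%, were in none of the 3 stretches on either strand. These are matches of letters, and nothing about a factor follows from them.

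The values are RPKM, the reads of a gene divided by its model length and by the depth of the library. The depth, inferred from the size of the smallest steps between values, lay between 3875080 and 5754470 reads per library, so counting noise weighs on the low keratins. The epithelial identity of the cells was plain in all 8 libraries, with EPCAM between 211 and 254 RPKM and CDH1 between 173 and 215. CLDN4 lay between 53.3 and 62.8 RPKM and CLDN7 between 61.4 and 85.5. All 7 epithelial markers averaged 1 RPKM or more, but KRT8, KRT18 and KRT19 among them are keratins described here, not separate support. NKX2-1, a lineage factor of lung adenocarcinoma, lay between 23.2 and 43.2 RPKM. AGER, at 0.477 to 1.94 RPKM, was the only other of the 9 lung markers to average 1 RPKM or more. CLDN18 and the surfactant genes SFTPC, SFTPA1 and SFTPD were listed at 0 throughout. Of the 7 markers of basal and squamous epithelium, 3 averaged 1 RPKM or more: KRT6A and KRT15, described later, and SERPINB5 at 9.60 to 13.5 RPKM. TP63 lay between 0.381 and 1.25 RPKM, KRT14 between 0.606 and 1.5003, and DSG3 was listed at 0. The fibroblast markers COL3A1, THY1, LUM and DCN and the blood markers CD3E and HBB were listed at 0 in every library. COL1A1 was the 1 of 8 fibroblast markers to average 1 RPKM or more, at 3.87 RPKM without a guide, 5.24 under the non-targeting guide, 6.47 under e3 guide 1 and 6.06 under e3 guide 2, and CD68 the 1 of 6 blood markers, at 12.2 to 31.8 RPKM. In bulk RNA of this kind, fewer cells of a type and less RNA per cell cannot be told apart.

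The 4 simple keratins made up nearly all keratin RNA. KRT19 was the highest keratin in every library, at 1307 and 1364 RPKM without a guide, 1009 and 1123 under the non-targeting guide, 1241 and 1249 under e3 guide 1, and 1213 and 1257 under e3 guide 2. KRT8 stood at 565 and 627 RPKM without a guide, 423 and 458 under the non-targeting guide, 490 and 495 under e3 guide 1, and 458 and 447 under e3 guide 2. KRT18, its partner, stood at 555 and 539 RPKM without a guide, 428 and 418 under the non-targeting guide, 466 and 456 under e3 guide 1, and 403 and 432 under e3 guide 2. All 3 genes were highest in the no-guide libraries, which did not overlap any library with a guide.

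KRT7 followed another pattern. It (ENSG00000135480.8) stood at 473 and 500 RPKM without a guide, 367 and 381 under the non-targeting guide, 493 and 493 under e3 guide 1, and 534 and 518 under e3 guide 2. The non-targeting libraries were the lowest, as for KRT19, but the no-guide libraries lay among or just below those with an e3 guide. KRT18 shares 28.9% of its 50-base windows with other genes, mostly its processed pseudogenes (GENCODE 29 transcripts), so part of its reads may be assigned elsewhere or to it from elsewhere. The other 3 simple keratins share between 0.997% and 1.88%. The plot of levels by library shows both patterns.

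**Figure D1:**
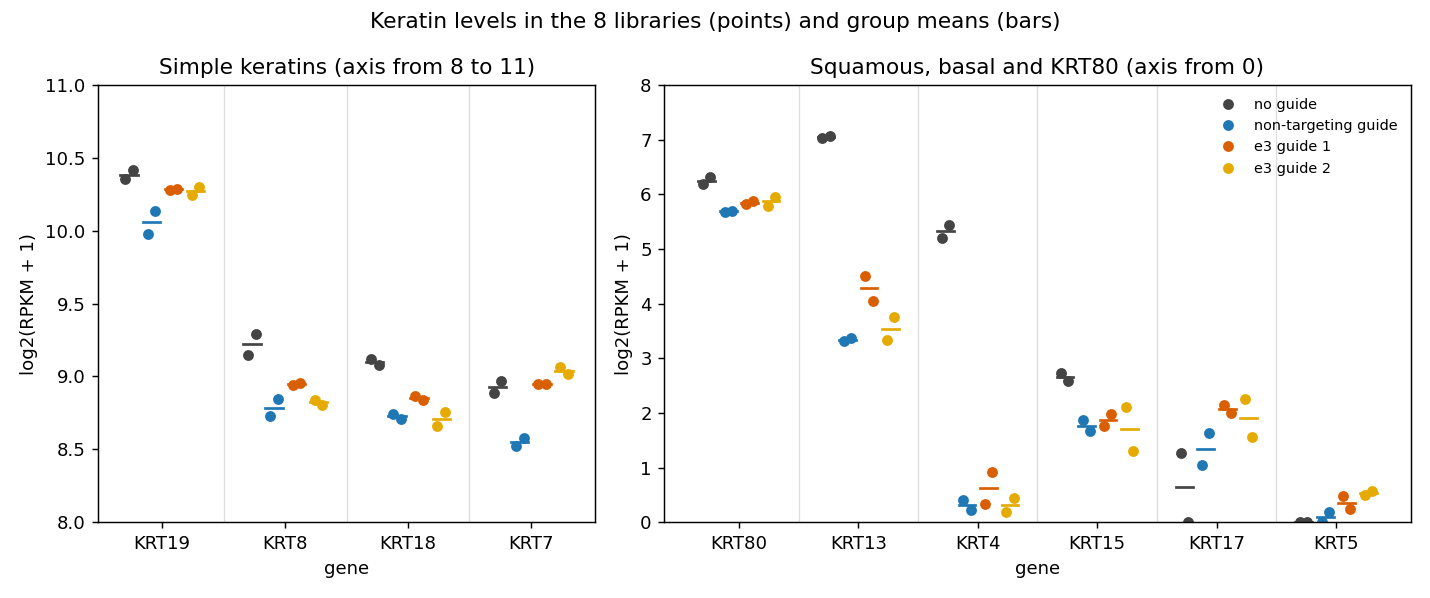
Levels of the 10 keratins on the log2(RPKM + 1) scale in each of the 8 libraries (points, coloured by group) with group means (bars), the simple keratins on an axis from 8 to 11 and the others on one from 0 to 8. KRT4 and KRT13 are high in the no-guide libraries only. KRT7, KRT19 and KRT80 are lowest with the non-targeting guide, and of these only KRT7 is not highest without a guide.

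KRT4 and KRT13, the squamous pair, were abundant without a guide and far lower in every library with one. KRT4 (ENSG00000170477.8 in the table) stood at 35.7 and 42.5 RPKM without a guide, 0.332 and 0.163 under the non-targeting guide, 0.267 and 0.902 under e3 guide 1, and 0.135 and 0.362 under e3 guide 2. In reads these were 432 and 462 without a guide against 4, 2, 3, 9, 2 and 4 in the libraries with one. KRT4 shares none of its 50-base windows with another gene.

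KRT13 (ENSG00000171401.8) stood at 129.5 and 133.7 RPKM without a guide, 8.95 and 9.32 under the non-targeting guide, 21.8 and 15.5 under e3 guide 1, and 9.02 and 12.5 under e3 guide 2. The 6 libraries with a guide did not overlap the 2 without, for either gene. At equal depth the no-guide libraries held 158 times the KRT4 reads of the non-targeting libraries, with an exact 95% interval of 72.1 to 431. The ratio was 68.8 (39.2 to 134) against e3 guide 1 and 168 (76.8 to 459) against e3 guide 2. For KRT13 the ratios were 14.4 (12.5 to 16.7), 6.99 (6.27 to 7.81) and 12.5 (10.99 to 14.3). These intervals cover counting error only. The ratio of KRT13 to KRT4 was 3.39 ± 0.338 (SD, n = 2) without a guide and lay between 17.2 and 81.6 in the libraries with one, where KRT4 rests on 9 reads or fewer.

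KRT80 stood at 71.8 and 78.3 RPKM without a guide, 50.4 and 50.95 under the non-targeting guide, 55.7 and 57.4 under e3 guide 1, and 54.4 and 60.8 under e3 guide 2. It was thus highest without a guide, as KRT8 and KRT18 were. KRT15 stood at 5.67 and 5.01 RPKM without a guide, 2.65 and 2.18 under the non-targeting guide, 2.41 and 2.93 under e3 guide 1, and 3.33 and 1.48 under e3 guide 2, again with no overlap between libraries with and without a guide.

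The other 2 basal keratins were low. KRT17 stood at 1.42 and 0 RPKM without a guide and at 1.07 and 2.10 under the non-targeting guide. It stood at 3.44 and 3.01 under e3 guide 1 and at 3.77 and 1.94 under e3 guide 2. Its reads, inferred at 600 bases, the shortest model length that gave whole reads, ran from 0 to 13 a library. The longest coding transcript of KRT17 has 1651 bases, so these reads may be too few. KRT17 shares 15.98% of its windows with other genes, chiefly KRT17P1, KRT17P2 and KRT17P3. KRT5, the main type II keratin of basal cells, was listed at 0 in both no-guide libraries and in 1 non-targeting library. It stood at 0.144 RPKM in the other non-targeting library, at 0.394 and 0.177 with e3 guide 1 and at 0.418 and 0.481 with e3 guide 2, from 2 to 7 reads. A count of 0 allows up to 3 reads, or 0.220 to 0.244 RPKM of KRT5 in those 3 libraries, a limit above the values of non-targeting replicate 2 and of e3 guide 1 replicate 2, so differences among these were not detectable at this depth.

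By mean over the 8 libraries, which pools groups that differ widely for KRT4 and KRT13, the order was KRT19, KRT8, KRT7, KRT18, KRT80, KRT13, KRT4, KRT15, KRT17 and KRT5. The ranges of neighbours in that order overlapped except at 2 steps. The lowest KRT19 value, 1009 RPKM, lay above the highest KRT8 value, 627, and the lowest KRT18 value, 403, above the highest KRT80 value, 78.3. KRT8, KRT7 and KRT18 were not separated, and KRT8 was above KRT7 in 5 of 8 libraries. KRT13 lay above KRT80 in both no-guide libraries and below it in the other 6, and KRT4 lay above KRT15 in 2 of 8 libraries. KRT4 ranked 7 of 10 without a guide and 9 or 10 of 10 in the groups with one.

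Summed over all keratin genes, the level was 3249 ± 97.5 RPKM (SD, n = 2) without a guide, 2403 ± 106 under the non-targeting guide, 2825 ± 1.06 under e3 guide 1 and 2753 ± 39.6 under e3 guide 2. The 4 simple keratins held between 91.2% and 91.3% of that sum without a guide, and between 95.2% and 96.1% in the libraries with one. KRT4 and KRT13 together held 5.25% ± 0.0813 (SD, n = 2) without a guide, 0.391% ± 0.0114 under the non-targeting guide, 0.680% ± 0.142 under e3 guide 1 and 0.399% ± 0.0895 under e3 guide 2. The share of the squamous pair thus separated libraries with and without a guide, with no overlap.

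KRT8 and KRT18 kept closer proportions. The ratio of KRT18 to KRT8 lay between 0.859 and 1.013 in the 8 libraries, with overlapping groups. The ratio of KRT19 to KRT7 did not overlap between e3 libraries and controls. It lay between 2.27 and 2.54 in the e3 libraries and between 2.73 and 2.95 in the controls. That of all type I to all type II keratins was 1.74 and 1.63 without a guide, 1.73 and 1.74 under the non-targeting guide, and between 1.54 and 1.64 in the e3 libraries, which lay below both non-targeting libraries and overlapped the no-guide ones. The ratio of KRT7 to KRT8 was 0.817 ± 0.0277 (SD, n = 2) without a guide, 0.850 ± 0.0263 under the non-targeting guide, 1.00 ± 0.00793 under e3 guide 1 and 1.16 ± 0.00632 under e3 guide 2. All 4 e3 libraries lay between 0.994 and 1.17, above the 4 controls at 0.798 to 0.869. Both ratios that hold KRT7 were picked out after their values were seen and are given with no test.

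**Figure D2:**
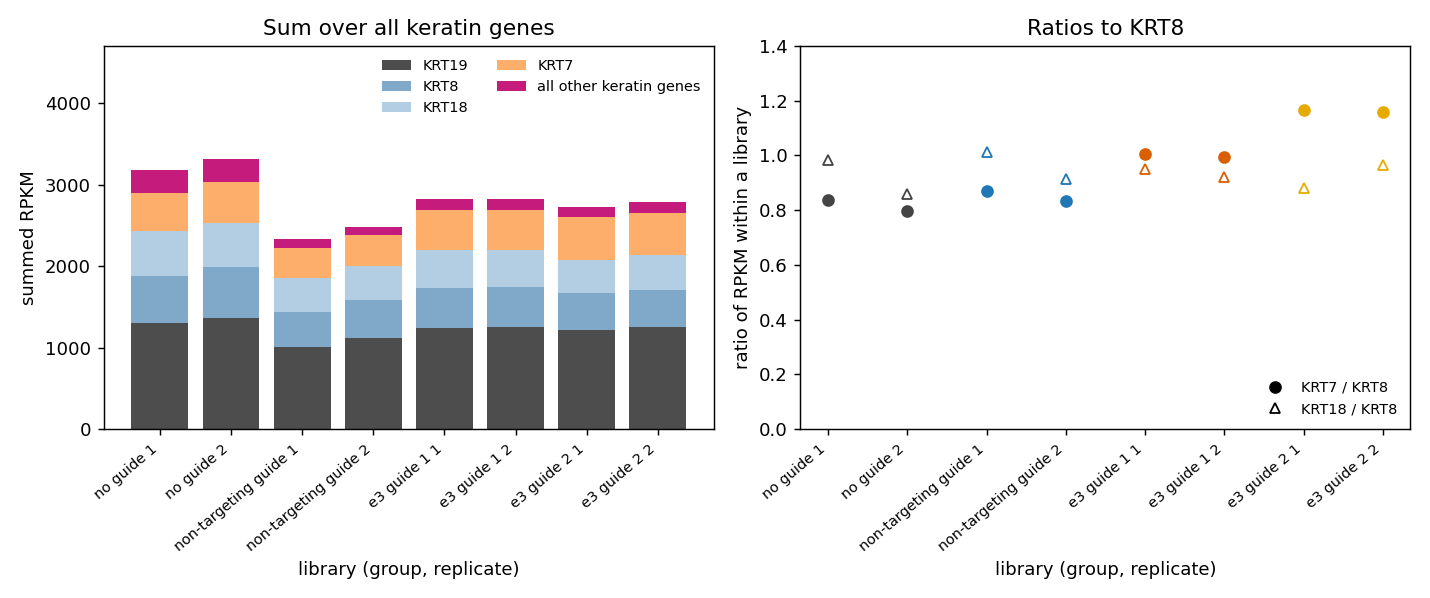
Left, summed RPKM of all keratin genes in each of the 8 libraries, stacked from KRT19, KRT8, KRT18, KRT7 and all other keratin genes. Right, the ratios KRT7 to KRT8 (filled circles) and KRT18 to KRT8 (open triangles) within each library. KRT7 to KRT8 lies between 0.994 and 1.17 in the e3 libraries and between 0.798 and 0.869 in the controls.

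Changes were fitted with limma on log2(RPKM + 1) for 13979 genes whose 8 libraries averaged 1 RPKM or more, and a gene was called at a Benjamini-Hochberg adjusted p under 0.05. Of the 10 keratins 9 entered the fit, and KRT5 did not. On this scale the change of a low gene is understated. Against all 4 controls, the 4 e3 libraries gave log2 differences of -2.34 ± 1.16 (SE) for KRT4 and -1.29 ± 0.87 for KRT13, since that mean joins 2 high and 2 low libraries for each gene. The other 7 lay between -0.42 for KRT15 and 1.00 for KRT17. None of the 9 was called by limma and 2, KRT7 and KRT17, were under 0.05 before adjustment, where 5.2% of all genes tested were called. Since this contrast was known when the genes were chosen, nothing is read from that count.

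For the squamous pair the controls differed from each other by more than in any of the other 6 comparisons. In the 4-group fit, the non-targeting libraries lay below the no-guide libraries by log2 differences of -5.005 ± 0.25 (SE) for KRT4 and -3.71 ± 0.18 for KRT13. KRT80 was lower by -0.56 ± 0.07, KRT8 by -0.43 ± 0.06, KRT7 by -0.38 ± 0.04, KRT18 by -0.37 ± 0.04 and KRT19 by -0.33 ± 0.05. These 7 of the 9 tested passed limma's threshold downward, and KRT15 (-0.90 ± 0.26) and KRT17 (0.70 ± 0.44) did not. Of all genes tested, 5.81% passed downward. The median log2 difference was -0.43 over the 9 keratins and -0.01 over all genes. The e3 libraries against the no-guide libraries gave -4.85 ± 0.22 for KRT4 and -3.14 ± 0.27 for KRT13, with 7 of 9 keratins past the threshold, 6 lower and KRT17 higher, where 16.7% of all genes passed. Of these 7, 2 remained without no-guide replicate 2, KRT4 and KRT13. Both comparisons share the no-guide libraries, and neither count is read as a result about the keratins.

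**Figure D3:**
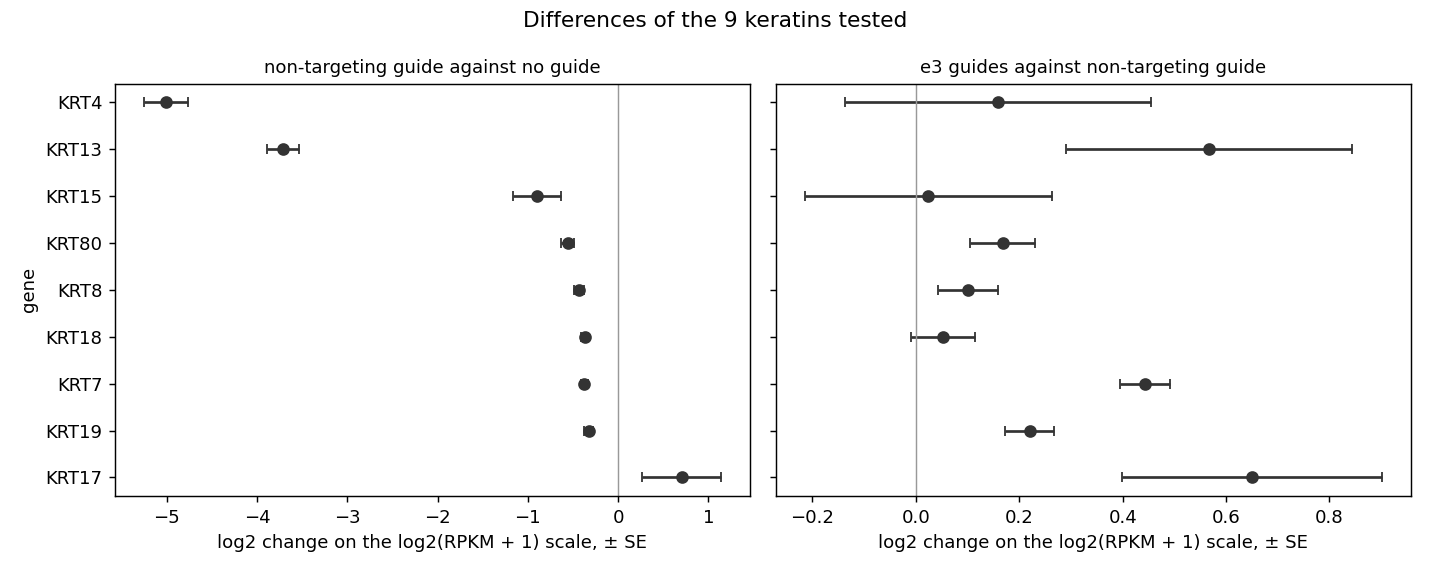
Log2 differences of the 9 keratins tested, on the log2(RPKM + 1) scale, with standard errors (limma), left for non-targeting against no guide and right for the e3 guides against non-targeting. The axes differ: KRT4 is at -5.005 on the left and at 0.16 on the right, where KRT7 at 0.44 and KRT19 at 0.22 passed the test.

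Against the non-targeting guide, which shares the presence of a guide, the e3 guides were accompanied by more KRT7 and somewhat more KRT19, and by no called difference in KRT4. KRT7 rose from 374 ± 9.76 RPKM (SD, n = 2) to 509 ± 20.1 (n = 4), a ratio of 1.36 and a log2 change of 0.44 ± 0.05 (SE; limma, adjusted p = 0.0049). KRT19 rose from 1066 ± 80.6 RPKM (n = 2) to 1240 ± 19.0 (n = 4), a ratio of 1.16 and a log2 change of 0.22 ± 0.05 (limma, adjusted p = 0.034). All 4 e3 libraries lay above both non-targeting libraries for either gene. Set against the no-guide libraries, neither gene was clearly higher with the e3 guides. KRT7 differed there by 0.07 ± 0.05 (SE), with overlapping libraries. KRT19 differed by -0.11 ± 0.04, and its e3 libraries all lay below the no-guide ones.

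These were 2 of the 9 keratins tested, both higher, where 3.3% of all genes were called higher. KRT8 (0.10 ± 0.06), KRT18 (0.05 ± 0.06) and KRT80 (0.17 ± 0.06) were not called, with limma adjusted p of 0.36, 0.70 and 0.17. Nor were KRT13 (0.57 ± 0.28, adjusted p = 0.28), KRT17 (0.65 ± 0.25, adjusted p = 0.18), KRT4 (0.16 ± 0.30, adjusted p = 0.82) or KRT15 (0.02 ± 0.24, adjusted p = 0.97). The KRT7 call was lost without non-targeting replicate 1 (limma adjusted p = 0.0804) or replicate 2 (0.0685). Most calls over all genes were lost there too: 461 genes were called higher with all 6 libraries, 6 without non-targeting replicate 1 and 13 without replicate 2. The KRT19 call was lost without any 1 of the 6 libraries (limma adjusted p from 0.0605 to 0.246). The e3 libraries were also part of the results known when the genes were chosen, so these p-values are not independent support.

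Each guide alone was compared with the non-targeting guide in the 4-group fit. With e3 guide 1, KRT7 rose by 0.40 ± 0.04 (limma, adjusted p = 0.0026), KRT13 by 0.94 ± 0.18 (adjusted p = 0.027) and KRT19 by 0.23 ± 0.05 (adjusted p = 0.042). These 3 of 9 stand beside 2.32% of all genes called higher. With e3 guide 2, KRT7 rose by 0.49 ± 0.04 (limma, adjusted p = 0.00045) and KRT19 by 0.21 ± 0.05 (adjusted p = 0.034), 2 of 9 beside 4.03% of all genes. KRT7 kept its call for each guide in every alternative run. The KRT13 call with e3 guide 1 was lost without either non-targeting library (adjusted p = 0.14 and 0.12) or without e3 guide 1 replicate 1 (0.11), and with a replicate block (0.0502). The KRT19 calls were lost without several single libraries, with adjusted p up to 0.16 for guide 1 and 0.17 for guide 2.

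The guides were also compared with each other. KRT13 was at 18.6 ± 4.47 RPKM (SD, n = 2) with e3 guide 1 and 10.8 ± 2.46 with e3 guide 2, a log2 difference of -0.74 ± 0.18 for guide 2 minus guide 1 that limma did not call (adjusted p = 0.23). KRT7 differed by 0.09 ± 0.04 (adjusted p = 0.45) and KRT18 by -0.14 ± 0.04 (adjusted p = 0.30). None of the 9 keratins was called by limma, 3 were under 0.05 before adjustment, and 0.0286% of all genes, 4 of them, were called. A different effect of the guides on KRT13 was therefore not shown.

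Of 43 other keratin genes in the table, 6 reached the level for testing. With the e3 guides against non-targeting, limma called 2 of these higher, beside 3.3% of all genes. KRT6A, the type II keratin of activated and hyperproliferative epithelium, stood at 7.56 and 6.98 RPKM without a guide, 9.82 and 10.0 under the non-targeting guide, 24.2 and 21.7 under e3 guide 1, and 19.9 and 20.9 under e3 guide 2. All 4 e3 libraries were above all 4 controls, and KRT6A rose against the non-targeting guide by 1.05 ± 0.10 (SE; limma, adjusted p = 0.0033). Its near-identical relative KRT6B rose by 0.86 ± 0.20 (adjusted p = 0.043), from levels under 1 RPKM, and KRT6C, at 0.60 (adjusted p = 0.12), did not pass. Reads of these 3 genes can be split between them by the counting, so they are uncertain as separate results.

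The remaining 3 tested, among them KRT16, the partner of KRT6A, and KRT10 of the upper skin layers, were not called. KRT16 differed by 0.17 (limma, adjusted p = 0.60) and KRT10 by -0.13 (adjusted p = 0.65). KRT16 averaged 4.48 RPKM without a guide, 4.71 under the non-targeting guide, 5.97 under e3 guide 1 and 4.89 under e3 guide 2. Its pseudogenes summed to 97.1, 48.7, 77.9 and 51.1 RPKM in the same order. How reads were divided between KRT16 and these pseudogenes was not tested. The median over the 6 other keratins tested was 0.44, beside 0.00 over all genes. The KRT6A call was lost without non-targeting replicate 1 (log2 change 1.04) or replicate 2 (1.06). The KRT6B call was lost with no filter (limma adjusted p = 0.0784), with a replicate block (0.0732) and without any 1 of the 6 libraries. The summed level of the 7 markers of basal and squamous epithelium lay between 24.2 and 28.7 RPKM in the controls and between 36.9 and 40.3 in the e3 libraries, a difference held mostly by KRT6A itself. SERPINB5 averaged 11.3 RPKM under the non-targeting guide, 10.4 under e3 guide 1 and 12.2 under e3 guide 2. TP63 averaged 0.826 RPKM without a guide, 0.393 under the non-targeting guide and, under e3 guide 1 and e3 guide 2, 1.0103 and 1.02, and its part in the keratin values was not tested.

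KRT78, another type II keratin of moist squamous linings, was picked out after its values were seen. It stood at 2.995 and 2.40 RPKM without a guide, 0 and 0.481 under the non-targeting guide, 0.600 and 0.169 under e3 guide 1, and 0.454 and 0.153 under e3 guide 2. Its mean was under 1 RPKM, so it was not tested. The no-guide libraries held 11.2 times the reads of the non-targeting libraries at equal depth (exact 95% interval 5.17 to 28.8), and lay above every library with a guide, as for KRT4.

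Genes of squamous differentiation did not share one direction between the controls. Of 39 listed, 9 were tested, and with the non-targeting guide 3 rose and 2 fell against no guide, with a median of 0.11, where 6.55% of all genes rose and 5.81% fell. One of the 3, LYPD3, lost its call with no filter, with a replicate block and without any 1 of 6 libraries (limma adjusted p from 0.0563 to 0.168). SCEL (sciellin, of the cornified envelope) fell by 1.31 (limma, adjusted p = 0.0024), with 35.7 and 35.2 RPKM without a guide and 12.2 and 15.3 with the non-targeting guide. EMP1, a membrane protein of epithelial cells, fell by 1.00 (adjusted p = 0.00011). S100A9, a calcium-binding protein of stressed epithelium and myeloid cells, rose by 3.18 (adjusted p = 0.00022), from 0.739 and 0 RPKM to 10.02 and 12.02. SBSN (suprabasin) rose by 1.64 (adjusted p = 0.0013). Against the non-targeting guide, the e3 guides were accompanied by 1 call among these 9, beside 3.3% of all genes called higher and 3.54% lower. It was LYPD3, which rose by 0.64 (limma, adjusted p = 0.040), a call lost with no filter and without any 1 of the 6 libraries. Genes given with a p here and in the paragraphs below on other lists were picked by smallest p. The lists were chosen with earlier results known, so these p-values are not independent support.

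**Figure D4:**
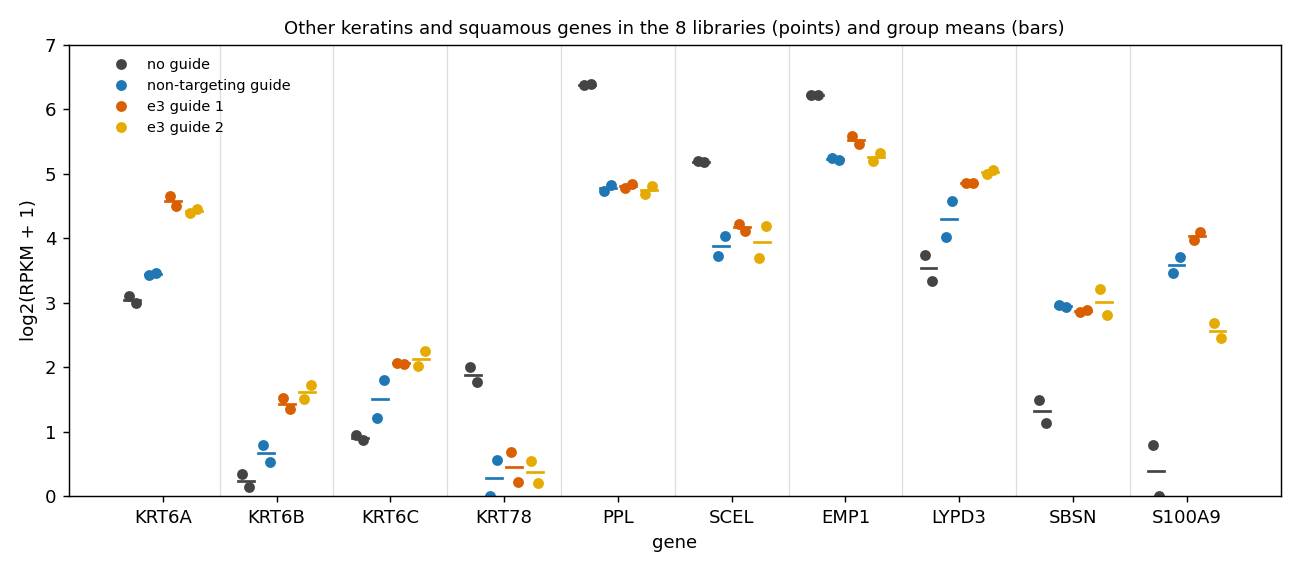
Levels on the log2(RPKM + 1) scale of KRT6A, KRT6B, KRT6C, KRT78 and of 6 genes of the desmosome and squamous lists in the 8 libraries (points) with group means (bars). KRT78, PPL, SCEL and EMP1 are highest without a guide, S100A9 and SBSN are lowest there, and KRT6A is highest with the e3 guides.

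Desmosomes and hemidesmosomes are the junctions that anchor keratin filaments. Of 25 genes listed, 20 were tested, and with the non-targeting guide 7 rose and 6 fell against no guide, with a median of -0.16, where 6.55% of all genes rose and 5.81% fell. One of the 7, DSG2, lost its call without any 1 of the 4 control libraries (limma adjusted p from 0.0639 to 0.0930). PPL (periplakin), which links keratin to the cornified envelope, fell by 1.60 (limma, adjusted p = 1.24e-05), with 81.9 and 82.6 RPKM without a guide and 25.7 and 27.2 with the non-targeting guide. ITGB4, the beta chain of the hemidesmosome integrin, fell by 0.69 (adjusted p = 0.00031), while the laminin chain genes LAMA3 and LAMB3 rose by 1.02 and 0.71 (adjusted p = 7.91e-05 and 5.17e-05). Against the non-targeting guide, the e3 guides were accompanied by 1 call of the 20, a share near that of all genes (3.3% higher and 3.54% lower). It was ITGB4, which rose by 0.42 (limma, adjusted p = 0.0066). That call was lost without either non-targeting library (adjusted p = 0.0858 and 0.0685).

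VIM (vimentin), the filament of mesenchymal cells, was at 6.31 and 6.97 RPKM without a guide, 39.4 and 41.0 under the non-targeting guide, 48.5 and 54.6 under e3 guide 1, and 65.4 and 70.9 under e3 guide 2. With the non-targeting guide it rose against no guide by 2.43 (limma, adjusted p = 4.1e-06), and against that guide the e3 guides gave 0.55 (adjusted p = 0.060). Taken alone against the non-targeting guide, e3 guide 1 gave 0.35 (limma, adjusted p = 0.068) and e3 guide 2 gave 0.75 (adjusted p = 0.0022). VIM was the 1 call of 7 filament genes tested of 15 between the controls, a share near that of all genes (6.55% higher and 5.81% lower). NEFH, a neurofilament chain, fell with the e3 guides by 0.59 against the non-targeting guide (limma, adjusted p = 0.0074). It was the 1 call of the 7 there, beside 3.3% of all genes called higher and 3.54% lower. That call was lost without either non-targeting library.

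Of 13 keratin-binding regulators tested, 2 fell with the e3 guides when set against non-targeting, the chaperone gene HSPB1 by 0.29 (limma, adjusted p = 0.0085) and GNB2L1, which encodes the scaffold RACK1, by 0.41 (adjusted p = 0.018), where 3.54% of all genes fell. Both calls were lost without either non-targeting library (adjusted p from 0.0860 to 0.144). Between the controls 3 of the 13 rose, beside 6.55% of all genes, among them HSPB1 by 0.33 (adjusted p = 0.0033) and SFN (14-3-3 sigma) by 0.37 (adjusted p = 0.0051). The third, YWHAZ, lost its call without any 1 of the 8 libraries (limma adjusted p from 0.0599 to 0.166).

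Of 18 epithelial transcription factors tested, 2 rose and 4 fell between the controls, beside 6.55% and 5.81% of all genes. The Notch target HES1 was among the former, by 0.88 (limma, adjusted p = 0.0010). The 4 that fell included ELF3 by 1.05 (adjusted p = 0.0015), PAX9, a factor of the oesophagus lining, by 0.99 (adjusted p = 0.0078; 0.054 without no-guide replicate 2) and NOTCH3 by 0.79 (adjusted p = 0.0045). Against the non-targeting guide limma called none of the 18 with the e3 guides, and 3 were under 0.05 before adjustment. NKX2-1 averaged 42.6 RPKM without a guide, 26.1 under the non-targeting guide, 29.6 under e3 guide 1 and 24.8 under e3 guide 2, and CD68, a marker of macrophages that many cells express, averaged 13.0, 22.7, 30.7 and 29.8. Their part in the keratin values was not tested.

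The genes whose levels followed KRT4 most closely over the 8 libraries, among 3725 with an SD of at least 0.3 on the log2 scale, were SEMA3E (Pearson r = 0.998), PPL (0.996), ELFN2 (0.995), PEG10 (0.994) and CEACAM6 (0.993). In all, 103 genes had an r over 0.95. CEACAM6, a surface protein of epithelial cancers, averaged 52.9 ± 1.86 RPKM (SD, n = 2) without a guide and 17.4 ± 1.98 (n = 6) with one. For KRT19 the closest were MIR1909, YPEL3, CTDSP2, C4orf34 and ANO1, with r between 0.968 and 0.973, and 9 genes were over 0.95. MIR1909, a microRNA gene, lay between 0 and 6.45 RPKM in the libraries with a guide, so its r may rest on few reads. These r describe 8 libraries that fall into groups and share their depth, and KRT4 in effect takes 2 levels, so a gene that differs between libraries with and without a guide ranks high.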

How the data were processed

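Poly(A) RNA of 8 NCI-H2009 libraries was sequenced. Each library has 1 column of RPKM in the deposited table, per the file headers. hg19 and Cufflinks are named, without a role, per the submitters' processing notes. Aligner, annotation and strand setting: not given in the sources used here. Columns were matched to samples by name, with the design text giving the name of the non-targeting guide. Reads were inferred from RPKM steps: 13978 of 13979 tested genes came out whole in all libraries, within 0.03 reads. The shortest model length that gave whole reads was used for each gene, so its reads can be understated. No count test was run on them.

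Tests used limma 3.58.1 in R 4.3.3 (moderated, variance trend, two-sided) on log2(RPKM + 1), for genes averaging 1 RPKM or more across the 8 libraries, with Benjamini-Hochberg adjustment across all genes tested. The e3 guides against all controls, or 1 control, used 2 groups. Other comparisons used 4 groups with a shared spread. The steps were tested on simulated data. Exact intervals of read ratios used SciPy 1.17.1.

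The members, the 6 gene lists and the rule for named genes were chosen with earlier results of these data known. The rule named every member, up to 4 tested genes of each list by smallest p with the e3 guides against non-targeting and by smallest p between the controls, and 5 genes most like KRT4 and KRT19. Not all are printed, and 1 gene that the rule named is not reported here, though it counts in every total. Shared 50-base windows came from GENCODE 29 transcripts. The alternatives were another pseudocount (0.1), no filter, a minimum of 5 RPKM, median-ratio scaling, a replicate block, leaving out each library, and an estimated correlation within groups.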

Additional observations from a re-analysis of the deposited data

Results flagged for a closer look

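KRT5 was listed at 0 in 3 of the 4 control libraries and at 0.144 RPKM (2 reads) in non-targeting replicate 2, which stood apart from the other 3 by the whole range of the group. With 3 of 4 values at 0 that distance follows from any single value above 0, and here it rests on 2 reads. Every e3 library held 2 to 7 reads of KRT5.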

How the results depend on the processing

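The count of keratins called was 0 under every alternative for the e3 guides against all controls (2 at an unadjusted p under 0.05) and for guide 2 against guide 1 (3), and 7 to 8 for non-targeting against no guide. For the e3 guides against non-targeting the 2 calls became 1 with no filter, 1 with the replicate block and 0 to 1 with a library left out. For the e3 guides against no guide the 7 became 3 with no filter and 2 to 7 with a library left out. For guide 1 the 3 became 1 with no filter and 1 to 2 with a library left out, and for guide 2 the 2 became 1 and 1 to 2. For guide 1 median-ratio scaling ended the KRT19 call (limma adjusted p = 0.0508), and against no guide a pseudocount of 0.1 ended that of KRT17. Where a group was left with 1 library, that library was assumed to vary like the others. With no filter, where 24832 genes were tested, calls over all genes fell too, from 956 to 379 for the e3 guides against non-targeting. They fell from 2336 to 1713 against no guide, from 667 to 409 for guide 1 and from 1306 to 876 for guide 2. In the same comparisons they also fell with the replicate block and with each library left out. The losses are therefore not read as particular to the keratins. Of 796 alternative values of single keratins, 732 kept direction and side of the threshold, 46 lost a call, 2 gained one and 16 changed sign. Of 342 for other genes named, 286 kept both and 56 lost a call. Every change of sign came with a library left out, in a keratin that was not called, and the cause was not tested. As ranges over the libraries left out, they were, against all controls, KRT19 (-0.023 to 0.12) and KRT80 (-0.21 to 0.00292), and against non-targeting KRT15 (-0.083 to 0.19). For guide 2 against non-targeting they were KRT4 (-0.13 to 0.13), KRT13 (-0.015 to 0.41), KRT8 (-0.019 to 0.098), KRT15 (-0.46 to 0.35) and KRT18 (-0.071 to 0.030), and for guide 2 against guide 1 KRT15 (-0.56 to 0.24), KRT17 (-0.52 to 0.18), KRT19 (-0.037 to 0.014) and KRT80 (-0.053 to 0.10). Deviations of libraries with equal replicate numbers correlated between -0.022 and 0.014. These values show no pairing, but with counting noise in every deviation they cannot exclude one. Depth limits KRT5 and, with a guide, KRT4, and also KRT17 as far as its reads are known.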
